A study of Mus musculus with 16 samples.

Results

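The 60 genes described here are chemokines and chemokine receptors of the mouse, among 22322 gene identifiers in the count table of each tissue. They were selected by symbol alone: Ccl, Cxcl, Ccr or Cxcr followed by a number and at most 1 letter, together with Cx3cl1, Cx3cr1, Xcl1, Xcr1 and Ackr1 to Ackr4. The set held 23 CC ligands, 13 CXC ligands, 2 other ligands, 18 signalling receptors and 4 atypical receptors. Family members under other symbols were left out. Polyadenylated RNA was sequenced from liver and white adipose tissue (fat) of diet-induced obese mice. The vehicle groups, labelled HFD, and the halofuginone groups, labelled H100, were injected intraperitoneally every 2 days and sampled after 8 weeks, the drug at 100 μg/kg. There were 5 libraries per group in liver and 3 per group in fat. All 4 groups came from obese mice and no lean group was analysed here. Strain, sex, age, fat depot and feed are not given in the sources used here, and the labels do not say that libraries of a group came from separate animals, so the p-values measure the spread between these samples, which may be technical.

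Chemokines are small secreted proteins that direct the migration of leukocytes along concentration gradients. Each binds 1 or more G protein-coupled receptors on the responding cell, while atypical receptors bind chemokines without G protein signalling and remove them or shape their gradients. In obesity, adipose tissue and liver take up circulating monocytes, a process in which Ccl2 and its receptor Ccr2 are the best known pair. Halofuginone is an inhibitor of prolyl-tRNA synthetase. In bulk tissue, fewer cells of a type and less RNA per cell cannot be told apart.

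Liver libraries held 20309956 to 31980683 counts and fat libraries 17070614 to 21387799. The 6 hepatocyte markers summed to 104428 to 119071 CPM (edgeR's depth-scaled count, on the TMM-adjusted library size) in vehicle livers, to 99921 CPM in treated replicate 1 and to 36534 to 81306 CPM in the other 4 treated livers, without overlap, and to 7.36 CPM or less in every fat library. In liver, Alb supplied most of this sum, at 85298 to 98802 CPM in vehicle and 26739 to 80505 CPM in treated libraries. The shift of the sum is thus largely that of 1 gene. Of the 6, 1 rose and 1 fell at an adjusted p under 0.05. Negative fold changes were found for 5 of the 6, with a list median of -0.51 on the log2 scale. The part of this shift in the liver results was not tested. The adipocyte markers Adipoq, Plin1, Lep and Retn had 3 counts or fewer in every liver library. Halofuginone liver replicate 1 stood apart from its group. Its level of Asns, an asparagine synthetase gene induced when amino acid supply is sensed as low, was 6.71 CPM. The other 4 held 55.5 to 127 CPM and vehicle livers reached 1.35. Trib3, another gene of that response, was at 5.96 CPM in replicate 1 against 210 to 357 in the other 4. Vehicle livers held 2.75 to 5.73 CPM of Trib3. T cell markers summed to 11.97 CPM in that library, 1.45 to 2.28 in the other 4 and 2.40 to 5.24 in vehicle, so the liver results that rest on it are also given without it. In fat, halofuginone replicate 3 had the highest sum of 4 monocyte markers (165 CPM against 39.8 and 42.7). Vehicle replicate 3 had 955 CPM of mast cell markers (110 and 130 in the other vehicle libraries) and 76.2 CPM of epididymis markers (0.540 and 1.44). The same library held 5327 CPM of adipocyte markers (11348 and 11308 in the other vehicle libraries). Its endothelium markers summed to 634 CPM (1327 and 1606) and its macrophage markers to 9900 CPM (5376 and 4368). The part of this difference in the fat results was not tested.

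A few ligands made up most of the ligand CPM of the set in each tissue. In liver, Cxcl12, a homeostatic ligand made by stromal cells, stood first at 88.8 ± 17.6 FPKM in vehicle (SD, n = 5; a level scaled for gene length and depth, which allows genes to be compared). It was followed by Ccl6 at 17.8 ± 6.12, Cxcl1 at 16.2 ± 8.19, Ccl9 at 8.20 ± 1.51, Cxcl9 at 7.05 ± 4.08 and Cxcl16 at 6.29 ± 0.741 FPKM. The spreads of Ccl6 and Cxcl1 overlapped, as did those of Ccl9, Cxcl9 and Cxcl16. Cxcl12, Ccl6 and Ccl9 together supplied 65.3 to 85.5% of the CPM of all ligands of the set in each of the 10 liver libraries. In vehicle fat, Ccl6 reached 549 ± 124 FPKM (SD, n = 3) and Ccl9 182 ± 38.8. Both are CC ligands of Ccr1 made by myeloid cells, and they supplied 54.3 to 72.4% of the ligand CPM across the 6 fat libraries. Below them came Ccl21a at 98.9 ± 51.6, Ccl8 at 97.9 ± 34.7, Ccl11 at 74.9 ± 14.2 and Cxcl12 at 73.6 ± 15.2 FPKM, which did not differ beyond their spread. Ccl11, an eosinophil attractant, had 1 count in 10 liver libraries against 1705 in a single fat library at most. The 2 tissues were scaled separately in the deposited FPKM, so these levels were not tested against each other.

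**Figure D1:**
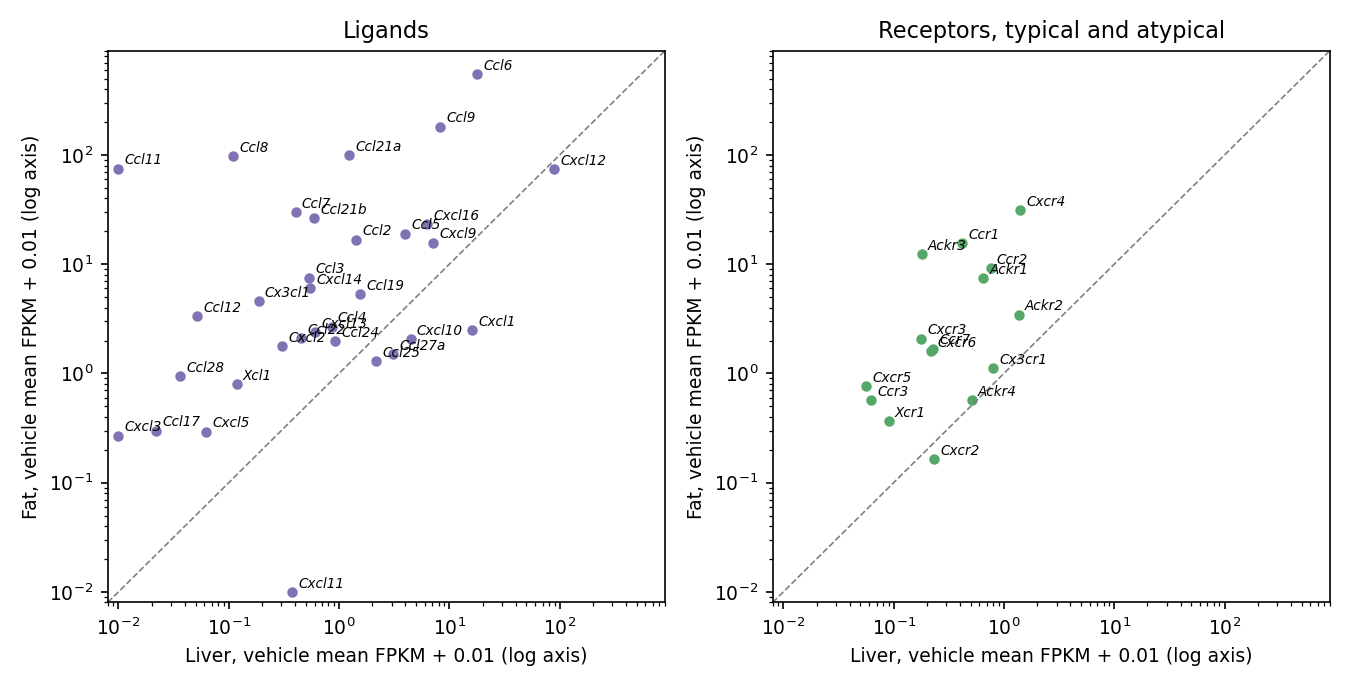
Vehicle mean FPKM of the ligands (left) and receptors (right) with a mean of at least 0.2 in either tissue, in liver (horizontal axis, n = 5) and fat (vertical axis, n = 3), both on log axes after adding 0.01; 1 point is 1 gene and the dashed line marks equal values. Most of the plotted genes lie above the line, Ccl6 is the highest point in fat and Cxcl12 the highest in liver, and Cxcl1 and Cxcl11 are among the few ligands below it.

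In liver, 31 of the 60 genes passed the filter on low counts and 7 of those (22.6%) were called, that is, changed at an adjusted p under 0.05. This share was close to the background, since 23.2% of the 12311 genes tested in liver were called. Of the 7, Ccl2, Cxcl10, Ccr1, Ccr2, Cx3cr1 and the atypical receptor Ackr2 fell, against a background of 10.5% called lower, and Cxcl13 rose, against 12.7% called higher. The median log2 fold change of the 31 was -0.35, beside 0.017 for all genes tested, and 24 of the 31 had a negative value. Among 12 receptors of both kinds, 4 fell and none rose, with a median of -0.59; among 19 ligands, 2 fell and 1 rose, with a median of -0.20. The summed level of all receptors was 21.2 to 27.0 CPM in the 5 vehicle livers and 11.3 to 16.5 CPM in 4 treated livers, with replicate 1 at 25.1 CPM. Without that replicate 14 of 32 tested genes were called (43.8%), close to the 42.8% of all genes called in the same fit, and the median was -0.55. The vehicle and halofuginone libraries did not overlap for Ccr2, Cx3cr1 and Ccr7, 9.68% of the 31, against 11.7% of all genes tested. All 3 were lower under treatment, where 6.55% of all genes did not overlap in that direction and 5.13% in the other. Of the 29 genes not tested, 5 had no count in any liver library and 13 never exceeded 3 counts, which is 0.0983 to 0.150 CPM.

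**Figure D2:**
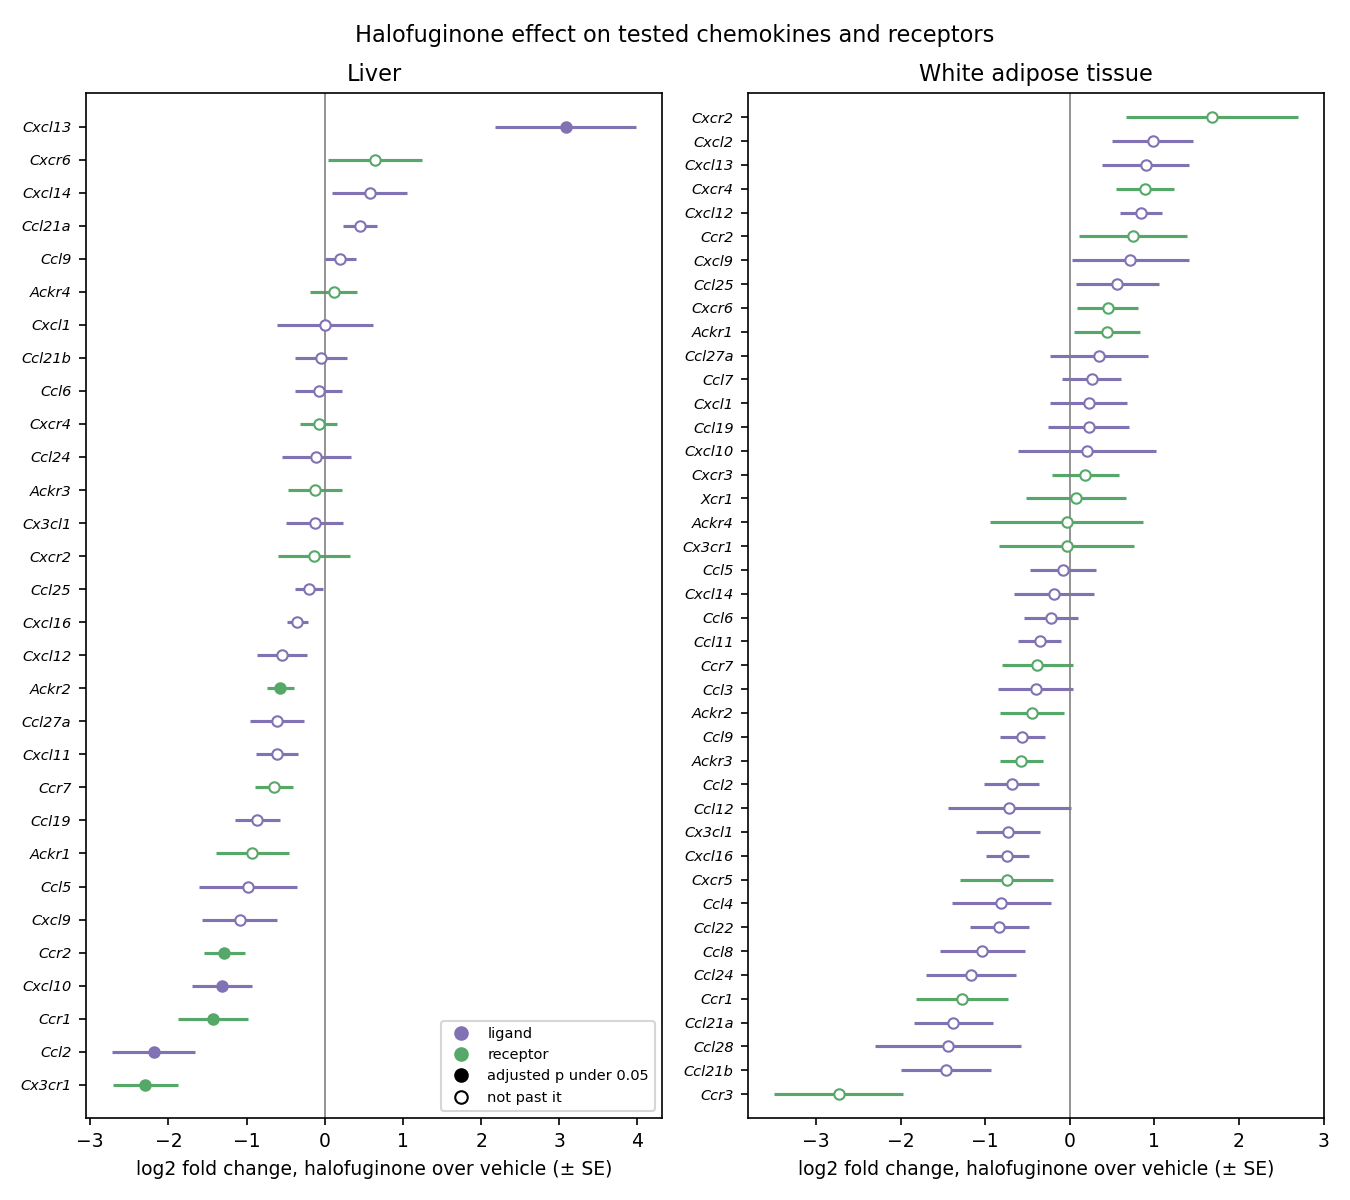
Log2 fold change of halofuginone over vehicle for 30 of the genes tested in liver (left) and 42 of those tested in fat (right), with bars of 1 SE; filled points passed an adjusted p of 0.05 and open points did not. In liver the filled points are Cxcl13 on the right and Ackr2, Ccr2, Cxcl10, Ccr1, Ccl2 and Cx3cr1 on the left, and in fat every plotted point is open.

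Ccl2, which recruits Ccr2-bearing monocytes, was low in liver. Vehicle libraries 1 to 5 held 0.554, 1.25, 2.24, 1.64 and 0.426 CPM, and halofuginone libraries 1 to 5 held 0.447, 0.373, 0.250, 0.0772 and 0.186 CPM. All treated livers but replicate 1 lay below every vehicle liver. Ccl2 fell (log2 fold change -2.19, SE 0.53, adjusted p = 0.0178), and without replicate 1 the value was -2.43 (adjusted p = 0.00640). Its receptor Ccr2 held 2.85, 1.85, 3.40, 2.43 and 3.02 CPM in vehicle and 1.59, 1.45, 0.966, 0.617 and 0.968 CPM in halofuginone libraries. Here the groups did not overlap, and Ccr2 fell (log2 fold change -1.29, SE 0.26, adjusted p = 0.0101). Without replicate 1 its value was -1.46 (adjusted p = 0.00122). The related ligands Ccl7, Ccl8 and Ccl12 were too low to test, at 0.131 to 0.560, 0 to 0.158 and 0 to 0.0792 CPM in vehicle and 0.0358 to 0.410, 0 to 0.0994 and 0 to 0.0497 CPM in treated livers.

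Cx3cr1, the fractalkine receptor of patrolling monocytes and tissue macrophages, had the steepest fall among the genes called. Its level was 2.02, 3.16, 1.77, 3.58 and 3.90 CPM in vehicle and 1.19, 0.186, 0.787, 0.540 and 0.298 CPM in halofuginone livers, with no overlap. The fall was 4.91-fold (log2 fold change -2.30, SE 0.42, adjusted p = 0.00715), and -2.68 (adjusted p = 0.000398) on the log2 scale without replicate 1. Its ligand, the membrane-anchored Cx3cl1, held 0.356, 0.801, 0.233, 1.08 and 0.623 CPM in vehicle and 0.497, 0.485, 0.716, 0.617 and 0.521 CPM in treated livers. The treated livers all lay inside the vehicle range, and the test was not passed (log2 fold change -0.13, SE 0.36, adjusted p = 0.819); the sign of this value reversed with library size alone, as given with the other alternatives.

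The inflammatory ligands Ccl3, Ccl4 and Ccl5 include ligands of Ccr1, a receptor of monocytes and neutrophils. Ccr1 held 0.911, 1.20, 1.77, 0.747 and 1.54 CPM in vehicle and 0.447, 1.04, 0.250, 0.154 and 0.372 CPM in halofuginone livers. Only treated replicate 2 lay inside the vehicle range, and Ccr1 fell (log2 fold change -1.43, SE 0.44, adjusted p = 0.0389; without replicate 1, -1.45 at an adjusted p of 0.0311). Ccl5, made largely by T and NK cells, passed only when replicate 1 was left out. Its vehicle values were 3.29, 0.701, 1.54, 1.38 and 4.23 CPM and its halofuginone values 3.58, 0.746, 0.644, 0.502 and 0.447 CPM (log2 fold change -0.98, SE 0.63, adjusted p = 0.271; without replicate 1, -1.96 at an adjusted p of 0.00813). Replicate 1 was the highest treated library, and 3 of the other 4 were below the vehicle range. The T cell marker sum was also highest in replicate 1, and its part in the result was not tested. Ccl3 and Ccl4 were below the filter. Ccl4 held 0.317, 0.851, 0.839, 0.560 and 0.393 CPM in vehicle and 0.348, 0.0746, 0, 0.0386 and 0.0745 CPM in treated livers, and only replicate 1 reached the vehicle range. With no filter on low counts, Ccl4 had an adjusted p of 0.0235 and Ccl22, a Ccr4 ligand made by macrophages and dendritic cells, 0.0330. Ccl3 held 0.277, 0.401, 0.326, 0.747 and 0.361 CPM in vehicle and 0.497, 0.112, 0.107, 0.193 and 0.261 CPM in treated livers, again with replicate 1 alone inside the vehicle range.

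Cxcl9, Cxcl10 and Cxcl11 are interferon-induced ligands of Cxcr3, a receptor of activated T cells. Cxcl10 held 4.59, 4.16, 4.66, 6.39 and 5.74 CPM in vehicle and 4.92, 1.16, 1.72, 1.81 and 0.894 CPM in halofuginone livers. Replicate 1 lay among the vehicle libraries, and the other 4 treated livers had less than the lowest of them. Cxcl10 fell (log2 fold change -1.31, SE 0.38, adjusted p = 0.0326), and without replicate 1 the value was -1.89 (adjusted p = 0.000117). The call was kept when replicate 1 was left out and lost when any other single library was, with an adjusted p of at most 0.0811. Cxcl9 had 37.8, 9.72, 17.3, 11.5 and 31.1 CPM in vehicle and 23.1, 5.52, 7.83, 9.38 and 5.14 CPM in halofuginone livers, and did not pass (log2 fold change -1.09, SE 0.48, adjusted p = 0.114; without replicate 1, -1.65 at an adjusted p of 0.00754). Cxcl11 had 1.74, 1.70, 0.606, 1.64 and 1.34 CPM in vehicle and 0.795, 1.04, 0.894, 1.04 and 0.819 CPM in halofuginone livers, all of the latter inside the vehicle range (log2 fold change -0.61, SE 0.27, adjusted p = 0.113); without vehicle replicate 3, the lowest of its group, the value was -0.81 (adjusted p = 0.0233), and without treated replicate 1 it was -0.59 (adjusted p = 0.116). The receptor Cxcr3 was below the filter, at 0.2004 to 0.426 CPM in vehicle and 0.261 to 0.596 CPM in treated livers. Among inducers of chemokines, Irf7, an interferon-response factor, fell in liver (38.1 ± 5.54 against 21.6 ± 9.01 CPM, log2 fold change -0.82, adjusted p = 0.0317). Of the 19 inducers tested, 3 fell and 11 had positive fold changes, with a median of 0.073. The part of Irf7 in the values of these ligands was not tested.

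The 250 bases before the start of Cxcl10, of its neighbour Cxcl9 and of Cxcl13 are shown because Cxcl10 fell and Cxcl13 rose in liver. Cxcl9 did not pass over all libraries but did without treated replicate 1. Its log2 fold change over all libraries was -1.09, beside -1.31 for Cxcl10. The Cxcl10 and Cxcl9 windows therefore do not stand for a changed and an unchanged gene. Sequences and positions are those of RefSeq on GRCm38.p6, whose table matched 45 of the 60 genes, and each is written 5′ to 3′ toward the gene. Both strands were searched for the NF-kappaB consensus and for the core of the interferon-stimulated response element, GAAA followed by any 2 bases and again GAAA, and matches are in capitals. Cxcl10 lies at chr5:92348890-92349139, minus strand, Cxcl9 at chr5:92328080-92328329, minus strand and Cxcl13 at chr5:95956689-95956938, plus strand.
Cxcl10: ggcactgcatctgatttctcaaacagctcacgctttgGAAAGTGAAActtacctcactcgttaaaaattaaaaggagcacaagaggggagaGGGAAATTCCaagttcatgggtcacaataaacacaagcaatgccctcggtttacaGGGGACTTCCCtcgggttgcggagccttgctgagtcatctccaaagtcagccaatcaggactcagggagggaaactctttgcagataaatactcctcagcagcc
Cxcl9: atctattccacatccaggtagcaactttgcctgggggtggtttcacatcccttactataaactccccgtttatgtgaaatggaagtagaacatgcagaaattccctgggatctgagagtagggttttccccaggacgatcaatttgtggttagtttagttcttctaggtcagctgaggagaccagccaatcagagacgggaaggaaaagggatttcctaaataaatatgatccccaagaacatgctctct
Cxcl13: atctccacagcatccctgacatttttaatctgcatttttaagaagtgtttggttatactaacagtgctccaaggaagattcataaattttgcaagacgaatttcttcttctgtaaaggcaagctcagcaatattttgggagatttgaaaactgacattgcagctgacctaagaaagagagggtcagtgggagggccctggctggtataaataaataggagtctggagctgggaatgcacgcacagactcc
The Cxcl10 window held 1 response element core, starting 213 bases before the start, and NF-kappaB matches starting at 159, 104 and 103 bases before it, the last 2 overlapping. These letters were not found in the Cxcl9 and Cxcl13 windows. Of 32851 promoter windows of this length, 7.25% held the NF-kappaB consensus and 2.98% the response element core. Among the 45 genes, 11 held the former in at least 1 window and 3 (Ccl19, Cxcl10 and Cxcl14) the latter. The percentages count windows and these numbers count genes, so they are not directly comparable. A match is a description of the letters and not a binding site.

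Cxcl13, which attracts B cells through Cxcr5, was the 1 gene of the set called higher in liver. Vehicle libraries 1 to 5 held 1.58, 0.902, 0.606, 0.448 and 0.0983 CPM and halofuginone libraries 1 to 5 held 3.97, 21.5, 1.40, 1.89 and 1.45 CPM. Treated replicate 2 was far above the rest, and 3 of the 5 treated livers exceeded every vehicle liver. Cxcl13 rose (log2 fold change 3.08, SE 0.90, adjusted p = 0.0322), and without replicate 2 the log2 fold change was 1.57 (adjusted p = 0.0811), which did not pass. Cxcr5 was below the filter, at 0 to 0.356 CPM in vehicle and 0.116 to 0.546 CPM in treated livers. B cell markers summed to 1.05 to 1.90 CPM in vehicle, 6.76 CPM in treated replicate 1 and 1.01 to 2.07 CPM in the other 4 treated livers. Neutrophil markers, at 17.7 CPM in treated replicate 2 against 4.15 to 6.81 CPM in the other 4, were highest where Cxcl13 was, and their part in the result was not tested. A list for lymph node stroma and follicles, of which only Enpp2 was abundant enough to test in liver, summed to 107 to 160 CPM in vehicle and 12.1 to 69.0 CPM in treated livers, and Enpp2, which encodes autotaxin, fell (137 ± 19.2 against 43.1 ± 25.5 CPM, log2 fold change -1.67, adjusted p = 0.0179). That sum was mostly Enpp2 in both groups, so it is not a measure of lymph node cells in liver. Cxcl13 rose while the sum was lower, and the part of Enpp2 in the result was not tested.

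Cxcl12 signals through Cxcr4 and is also bound by the atypical receptor Ackr3. In liver it held 263, 234, 168, 239 and 286 CPM in vehicle and 341, 127, 93.0, 141 and 116 CPM in halofuginone libraries. Replicate 1 was the highest of the 10 and the other 4 treated livers were below every vehicle liver. It did not pass over all libraries (log2 fold change -0.54, SE 0.32, adjusted p = 0.226) and passed without replicate 1, at -1.02 (adjusted p = 0.000716). Fibroblast and stellate cell markers summed to 233 to 305 CPM in vehicle, 264 CPM in treated replicate 1 and 169 to 223 CPM in the other 4. All 6 had negative fold changes. Of these, 2 were called lower, where 10.5% of all genes tested in liver were called lower. They were Pdgfrb (9.75 ± 1.92 against 6.25 ± 0.896 CPM, log2 fold change -0.64, adjusted p = 0.0185) and Reln (53.6 ± 8.21 against 36.3 ± 8.44 CPM, log2 fold change -0.56, adjusted p = 0.0280). The part of these markers in the Cxcl12 values was not tested. Cxcr4 ranged over 1.34 to 3.01 CPM in vehicle and 1.45 to 2.53 CPM in treated livers (log2 fold change -0.08, SE 0.24, adjusted p = 0.833). Ackr3 ranged over 0.280 to 0.971 and 0.348 to 0.745 CPM (log2 fold change -0.13, SE 0.34, adjusted p = 0.811). For both receptors every treated library lay inside the vehicle range. Cxcl16, a transmembrane ligand shed from macrophages and endothelium, repeated the pattern of Cxcl12. It held 14.9, 14.4, 13.7, 15.0 and 12.8 CPM in vehicle and 15.4, 10.03, 10.1, 10.7 and 9.38 CPM in halofuginone livers (log2 fold change -0.35, SE 0.13, adjusted p = 0.0781; without replicate 1, -0.52 at an adjusted p of 0.000725). Its receptor Cxcr6, found on T and NK cells, held 0.594, 0.250, 0.233, 0.299 and 0.688 CPM in vehicle and 1.74, 0.0746, 0.644, 0.463 and 0.521 CPM in treated livers (log2 fold change 0.64, SE 0.60, adjusted p = 0.453), with replicate 1 again the highest.

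**Figure D3:**
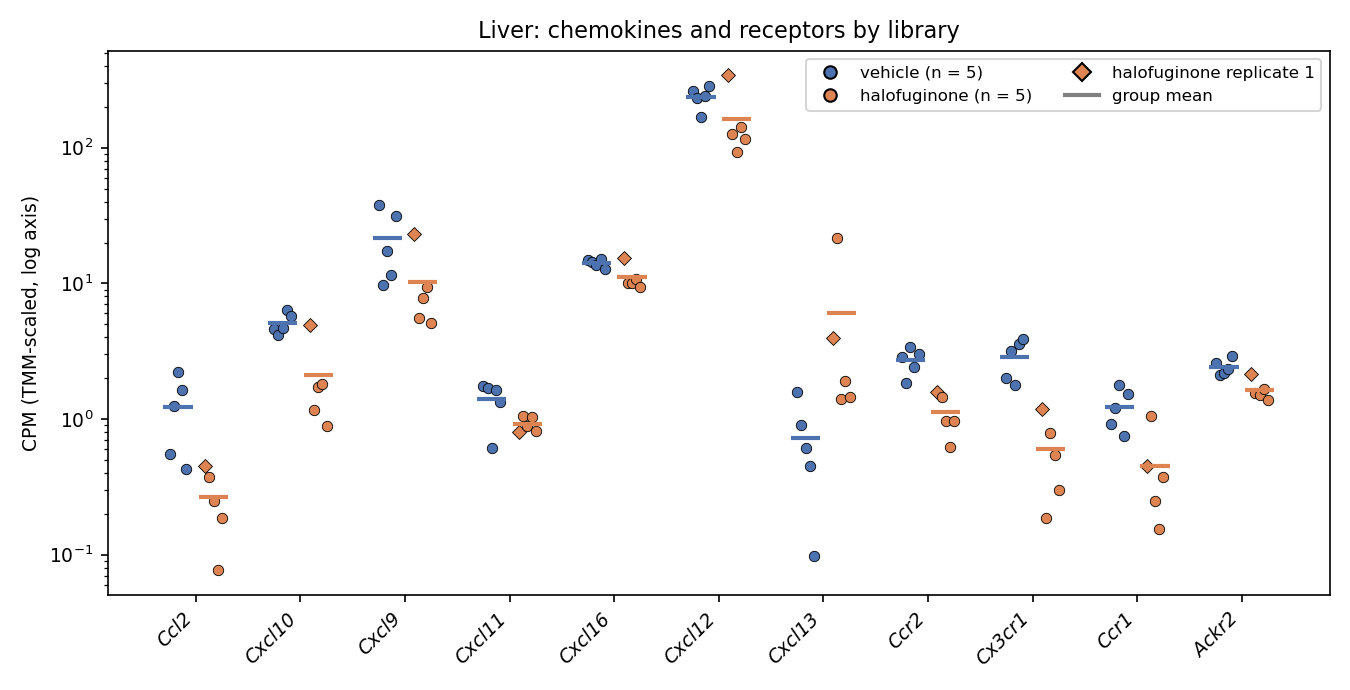
CPM (log axis) of 11 chemokines and receptors in each liver library, vehicle in blue and halofuginone in orange, with halofuginone replicate 1 as a diamond and group means as bars. The groups do not overlap for Ccr2 and Cx3cr1, and the diamond lies at or above the vehicle mean for Cxcl9, Cxcl12 and Cxcl16 while the other treated points lie below it.

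The neutrophil attractants Cxcl1, Cxcl2 and Cxcl5 act through Cxcr2. Cxcl1 varied widely, with 28.0, 13.3, 22.1, 8.59 and 9.83 CPM in vehicle and 4.92, 49.8, 4.62, 11 and 11.6 CPM in halofuginone livers. Treated replicate 2 was above, and replicates 1 and 3 below, every vehicle liver (log2 fold change 0.01, SE 0.62, adjusted p = 0.995). Without replicate 2 the value was -1.04 (adjusted p = 0.105). Cxcl2 at 0.131 to 0.886 and 0.149 to 0.347 CPM, and Cxcl5 at 0 to 0.187 and 0 to 0.0373 CPM in vehicle and treated livers, were below the filter. Cxcr2 held 0.871, 0.451, 1.03, 0.635 and 0.557 CPM in vehicle and 0.497, 1.38, 0.143, 0.463 and 0.707 CPM in treated livers (log2 fold change -0.14, SE 0.46, adjusted p = 0.845), and replicate 2 was again the highest.

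Ccr7 guides dendritic cells and T cells to lymph nodes along Ccl19 and Ccl21a. It was low in every liver, with 0.436, 0.501, 0.513, 0.485 and 0.361 CPM in vehicle and 0.248, 0.298, 0.358, 0.270 and 0.261 CPM in halofuginone libraries. The groups did not overlap, with at most 13 counts in any library, and the test was not passed (log2 fold change -0.65, SE 0.24, adjusted p = 0.0990). Ccl19 held 0.990, 1.05, 0.839, 1.53 and 1.61 CPM in vehicle and 0.497, 0.634, 0.966, 0.386 and 0.819 CPM in halofuginone livers. All treated livers but replicate 3 were below the vehicle range, and Ccl19 did not pass (log2 fold change -0.86, SE 0.29, adjusted p = 0.0513), though it did with DESeq2 (adjusted p = 0.0277). Ccl21a went the other way, with 1.27, 1.00, 0.792, 1.34 and 1.18 CPM in vehicle and 1.19, 2.01, 1.82, 1.43 and 1.19 CPM in treated livers (log2 fold change 0.45, SE 0.22, adjusted p = 0.154). Ccl21a has a near-identical copy, Ccl21b, so the split of reads between the 2 is uncertain. Dendritic cell markers summed to 10.9 to 11.97 CPM in vehicle, 12.1 in treated replicate 1 and 6.33 to 7.87 in the other 4 treated livers. All 5 markers tested had negative fold changes, with a median of -0.82. Siglech alone was called (0.6249 ± 0.1996 against 0.258 ± 0.0944 CPM, log2 fold change -1.26, adjusted p = 0.0227). The part of these markers in the Ccr7 values was not tested.

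The remaining pairs and the 2 abundant Ccr1 ligands showed no called change. Ccl6 held 24.7, 18.8, 43.9, 25.1 and 23.2 CPM in vehicle and 30.6, 43.9, 21.7, 15.7 and 16.9 CPM in halofuginone livers (log2 fold change -0.08, SE 0.30, adjusted p = 0.872). Ccl9 held 22.4, 21.2, 33.1, 27.7 and 25.6 CPM in vehicle and 30.0, 21.4, 20.9, 42.4 and 34.8 CPM in treated livers (log2 fold change 0.20, SE 0.20, adjusted p = 0.487). For both ligands the groups overlapped. Xcl1 and Xcr1, a pair that joins T and NK cells to cross-presenting dendritic cells, stayed under the filter, with Xcr1 at 0.1002 to 0.485 CPM in vehicle and 0.223 to 0.546 CPM in treated livers. Xcl1 ranged over 0 to 0.112 and 0 to 0.298 CPM. Ccl20 had no count in any liver and its receptor Ccr6 at most 0.0746 CPM.

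The log2 fold changes of the other 5 tested ligands were 0.57 (SE 0.48, adjusted p = 0.395) for Cxcl14, -0.61 (SE 0.35, adjusted p = 0.218) for Ccl27a, -0.20 (SE 0.18, adjusted p = 0.424) for Ccl25, -0.11 (SE 0.44, adjusted p = 0.872) for Ccl24 and -0.05 (SE 0.33, adjusted p = 0.929) for Ccl21b. None passed over all libraries, and Ccl27a passed without replicate 1, at -1.003 (adjusted p = 0.0147). Cxcl14 was highest, at 3.80 CPM, in treated replicate 2. Ccl27a has a near-identical copy, Ccl27b, which had no count.

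Ackr2 is the atypical receptor that takes up and degrades inflammatory CC chemokines such as Ccl2. Its level was 2.57, 2.10, 2.19, 2.35 and 2.92 CPM in vehicle and 2.14, 1.57, 1.503, 1.66 and 1.38 CPM in halofuginone livers. Replicate 1 was inside the vehicle range and the other 4 below it. Ackr2 fell (log2 fold change -0.57, SE 0.17, adjusted p = 0.0340; without replicate 1, -0.70 at an adjusted p of 0.00464), and the call was lost when any of 7 other single libraries was left out. It was also lost in 5 of 10 other alternatives: library size alone, the replicate block, 1 fit of all 4 groups and FPKM with either pseudocount, at adjusted p-values of 0.0721 to 0.126. Ackr1 and Ackr4 did not pass, at -0.93 (SE 0.47, adjusted p = 0.163) and 0.11 (SE 0.30, adjusted p = 0.803) on the log2 scale.

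The liver calls differed in how far they rested on single libraries. Ccl2, Ccr2 and Cx3cr1 were called in each of the 10 fits that left out a single library. Cxcl13 was called in 5 of them, Ccr1 and Ackr2 in 3 each, and Cxcl10 in 1. In 1 fit of all 4 groups Ccr2 (adjusted p = 0.0550), Ccr1 (adjusted p = 0.0690) and Cxcl10 (adjusted p = 0.0942) were lost. On FPKM with a pseudocount of 1 Cxcl13 was lost (adjusted p = 0.0555). The 4 monocyte markers, Ly6c2, Plac8 and Chil3 among them, all had negative fold changes and summed to 10.7 to 13.98 CPM in vehicle and 4.76 to 12.6 CPM in treated livers, and Plac8 alone fell (7.17 ± 1.10 against 4.07 ± 0.714 CPM, log2 fold change -0.82, adjusted p = 0.00798). None of the 8 macrophage and 5 Kupffer cell markers tested fell, and Cd163 rose (23.5 ± 8.03 against 40.3 ± 6.90 CPM, log2 fold change 0.78, adjusted p = 0.0255). The macrophage list summed to 313 to 384 CPM in vehicle, 527 in treated replicate 1 and 299 to 353 in the other 4. Its median log2 fold change was 0.042 and that of the Kupffer list -0.041. The part of these cells in the fall of Ccr2 and Cx3cr1 was not tested.

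**Figure D4:**
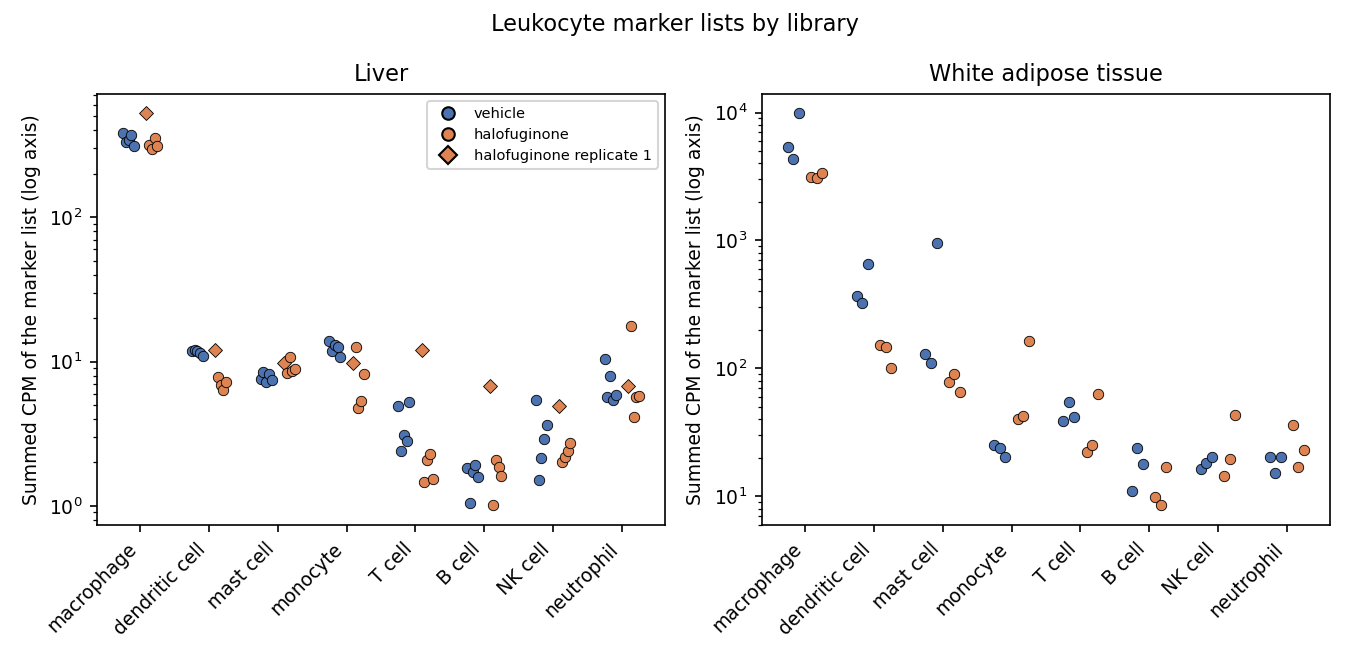
Summed CPM (log axis) of 8 leukocyte marker lists in each liver library (left) and fat library (right), vehicle in blue and halofuginone in orange, with halofuginone replicate 1 of liver as a diamond. In liver the diamond is the highest T cell and B cell point, and in fat the vehicle points of the macrophage and dendritic cell lists lie above all treated points.

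Genes that act after the receptors and genes that induce the ligands were read from lists. Of 37 signalling genes tested (G proteins, arrestins, receptor kinases and the motility machinery), Grk2, a kinase that desensitizes the receptors, rose (26.7 ± 1.78 against 31.4 ± 1.15 CPM, log2 fold change 0.23, adjusted p = 0.0464) and none fell, beside 23.2% called among all genes. The list median was -0.014. Of 19 inducing cytokines and transcription factors tested, 3 fell, Irf7 and Csf1 among them (13.7 ± 1.26 against 8.03 ± 1.53 CPM, log2 fold change -0.77, adjusted p = 0.00617 for Csf1), and none rose. Csf1 is the growth factor of macrophages, and the list median was 0.073. Across all genes tested in liver, 10.5% were called lower and 12.7% higher. Of 15 chemoattractants and binding proteins outside the symbol rule, 3 fell and none rose, with a median of -0.25. These were Rarres2, the precursor of chemerin (336 ± 30.6 against 198 ± 70.3 CPM, log2 fold change -0.76, adjusted p = 0.0274), Dpp4, a peptidase that trims chemokines (114 ± 6.06 against 78.1 ± 17.4 CPM, log2 fold change -0.55, adjusted p = 0.0209), and Cmtm6 (90.4 ± 12.2 against 70.4 ± 6.10 CPM, log2 fold change -0.36, adjusted p = 0.0347).

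In fat, 43 of the 60 genes were tested with edgeR and none was called, nor was any of the 14030 genes tested (0% called). An unadjusted p under 0.05 was reached by 6 of the 43 (13.95%) and by 13.4% of all genes tested. The vehicle and halofuginone libraries did not overlap for 6 of the 43 (13.95%), against 20.6% of all genes. DESeq2 called 723 genes (5.16%) and 2 of the set (4.65%), Ccr3 and Cxcl12. The median log2 fold change was -0.18 for the 43 and 0.012 for all genes tested. Of the 27 ligands 17 had negative values, and of the 16 receptors 8. Of the 17 genes not tested, 4 had no count in any fat library and 7 never exceeded 3 counts, which is 0.139 to 0.1799 CPM.

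The fold change of greatest size among the 43 was that of Ccr3, the receptor of eosinophils for Ccl11 and Ccl24. Vehicle fat libraries 1 to 3 held 1.14, 0.888 and 3.64 CPM and halofuginone libraries 1 to 3 held 0.453, 0.232 and 0.158 CPM. Every treated library was lower, but only 16 counts remained over the treated group (log2 fold change -2.73, SE 0.76, adjusted p = 0.231). Vehicle replicate 3 was the highest. Without it the value was -1.83 (adjusted p = 0.390). Mast cell markers summed to 130, 110.0 and 955 CPM in vehicle libraries 1 to 3 and to 65.1 to 90.0 CPM in treated fat, without overlap. All 5 had negative fold changes at an unadjusted p under 0.05, none was called and the median was -2.49, and their part in the Ccr3 values was not tested. Ccl24 held 1.02, 1.89 and 0.808 CPM in vehicle and 0.396, 0.558 and 0.684 CPM in halofuginone fat, again without overlap (log2 fold change -1.17, SE 0.53, adjusted p = 0.402). Ccl11, far more abundant, overlapped, at 91.9, 62.5 and 95.8 CPM in vehicle and 47.4, 79.2 and 68.6 CPM in treated fat (log2 fold change -0.36, SE 0.25, adjusted p = 0.594).

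Cxcl12 and its receptor Cxcr4 were the 2 of the 43 tested genes whose treated fat libraries all lay above vehicle; in that direction 10.2% of all genes did not overlap. Cxcl12 held 219, 245 and 148 CPM in vehicle and 300.4, 353 and 446 CPM in halofuginone fat (log2 fold change 0.85, SE 0.25, adjusted p = 0.249). The DESeq2 adjusted p was 0.0366. Cxcr4 was even across vehicle, at 46.3, 43.7 and 46.9 CPM, and spread out under treatment, at 77.7, 128 and 47.9 CPM (log2 fold change 0.89, SE 0.34, adjusted p = 0.332). Ackr3, the other Cxcl12 receptor, held 41.4, 48.0 and 25.2 CPM in vehicle and 25.5, 22.4 and 29.2 CPM in treated fat, and 1 treated library lay below the vehicle range (log2 fold change -0.57, SE 0.26, adjusted p = 0.395).

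Ccl21a and Ccl22, ligands of lymphocyte and dendritic cell homing, did not overlap between the fat groups; in the lower direction this was so for 10.4% of all genes. Ccl21a held 60.6, 136 and 64.9 CPM in vehicle and 25.5, 20.9 and 54.2 CPM in halofuginone fat, with no overlap (log2 fold change -1.38, SE 0.47, adjusted p = 0.296). Its copy Ccl21b held 14.4, 34.4 and 20.8 CPM in vehicle and 6.06, 4.28 and 15.0 CPM in treated fat (log2 fold change -1.46, SE 0.53, adjusted p = 0.320). Neither passed the adjusted threshold, and reads may be split between them. The receptor Ccr7 held 1.98, 3.99 and 4.21 CPM in vehicle and 1.81, 2.79 and 3.21 CPM in treated fat, where the groups overlapped (log2 fold change -0.38, SE 0.42, adjusted p = 0.753). Its other ligand Ccl19 held 4.44, 4.77 and 2.83 CPM in vehicle and 3.51, 2.65 and 7.89 CPM in treated fat, with treated libraries both above and below vehicle (log2 fold change 0.22, SE 0.47, adjusted p = 0.880). Ccl22 held 4.14, 6.66 and 3.46 CPM in vehicle and 3.00, 2.32 and 2.68 CPM in treated fat, with no overlap (log2 fold change -0.83, SE 0.35, adjusted p = 0.373). T cell markers summed to 38.4 to 54.9 CPM in vehicle and to 22.2, 25.3 and 63.1 CPM in the treated libraries. The lymph node list, of which 3 of 6 genes were tested in fat, summed to 241 to 312 CPM in vehicle and 159 to 316 CPM in treated fat. All 3 tested genes of the lymph node list had negative fold changes and none was called (median -0.95). The 6 B cell markers also had negative fold changes, with none called (median -0.55). Of the 8 T cell markers, 4 had negative and 4 positive fold changes. The part of T cells, of B cells and of the listed genes in the Ccl21a and Ccl22 values was not tested.

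The monocyte pair did not pass the test in fat. Ccl2 held 10.3, 12.1 and 19.7 CPM in vehicle and 11.2, 6.18 and 8.78 CPM in halofuginone fat (log2 fold change -0.69, SE 0.33, adjusted p = 0.422). Ccr2 held 40.9, 14.1 and 43.4 CPM in vehicle and 16.9, 59.6 and 88.5 CPM in treated fat (log2 fold change 0.75, SE 0.64, adjusted p = 0.665). Monocyte markers summed to 20.3 to 25.0 CPM in vehicle and to 39.8, 42.7 and 165 CPM in treated libraries 1 to 3, without overlap, and all 4 had positive fold changes (median 1.98, none called). Treated replicate 3 was the highest for both Ccr2 and this sum, and the part of monocytes in the Ccr2 values was not tested. Among the related monocyte chemoattractants, Ccl7 held 18.3, 22.9 and 32.4 CPM in vehicle and 42.1, 18.2 and 27.9 CPM in treated fat (log2 fold change 0.26, SE 0.35, adjusted p = 0.800). Ccl8 held 36.2, 44.3 and 74.2 CPM in vehicle and 38.1, 9.62 and 28.0 CPM in treated fat (log2 fold change -1.03, SE 0.51, adjusted p = 0.432). The least abundant, Ccl12, held 1.02, 1.33 and 3.17 CPM in vehicle and 1.42, 0.325 and 1.63 CPM in treated fat (log2 fold change -0.72, SE 0.72, adjusted p = 0.726). Treated replicate 2 was the lowest of the 6 for all 3, and each overlapped between groups. Cx3cr1 was even in vehicle fat, at 4.44, 3.27 and 3.87 CPM, and ranged widely under treatment, at 0.566, 2.65 and 8.05 CPM (log2 fold change -0.04, SE 0.80, adjusted p = 0.991). Its ligand Cx3cl1 held 8.81, 13.9 and 24.2 CPM in vehicle and 8.49, 8.23 and 11.6 CPM in treated fat (log2 fold change -0.73, SE 0.38, adjusted p = 0.456).

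Treated replicate 3 was the highest fat library for Cxcl9 and Cxcl10. Cxcl9 held 51.3, 46.2 and 41.8 CPM in vehicle and 21.8, 39.2 and 167 CPM in halofuginone fat (log2 fold change 0.71, SE 0.69, adjusted p = 0.714). The other 2 treated libraries were below all vehicle libraries, and without replicate 3 the value was -0.59 (adjusted p = 0.388). Cxcl10 held 1.32, 2.61 and 2.94 CPM in vehicle and 0.793, 1.07 and 6.05 CPM in treated fat, with 0.20 (SE 0.82, adjusted p = 0.945) over all libraries and -1.27 (adjusted p = 0.354) without replicate 3. Cxcr3 held 2.82, 3.99 and 4.21 CPM in vehicle and 3.06, 3.07 and 6.42 CPM in treated fat (log2 fold change 0.18, SE 0.40, adjusted p = 0.883), and NK cell markers summed to 43.2 CPM in that replicate against 14.4 to 20.1 CPM in the other 5 libraries. Ccl5 held 10.6, 12.8 and 7.50 CPM in vehicle and 6.12, 7.76 and 15.4 CPM in treated fat, also highest in replicate 3 (log2 fold change -0.08, SE 0.39, adjusted p = 0.954). The part of T and NK cells in these values was not tested.

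**Figure D5:**
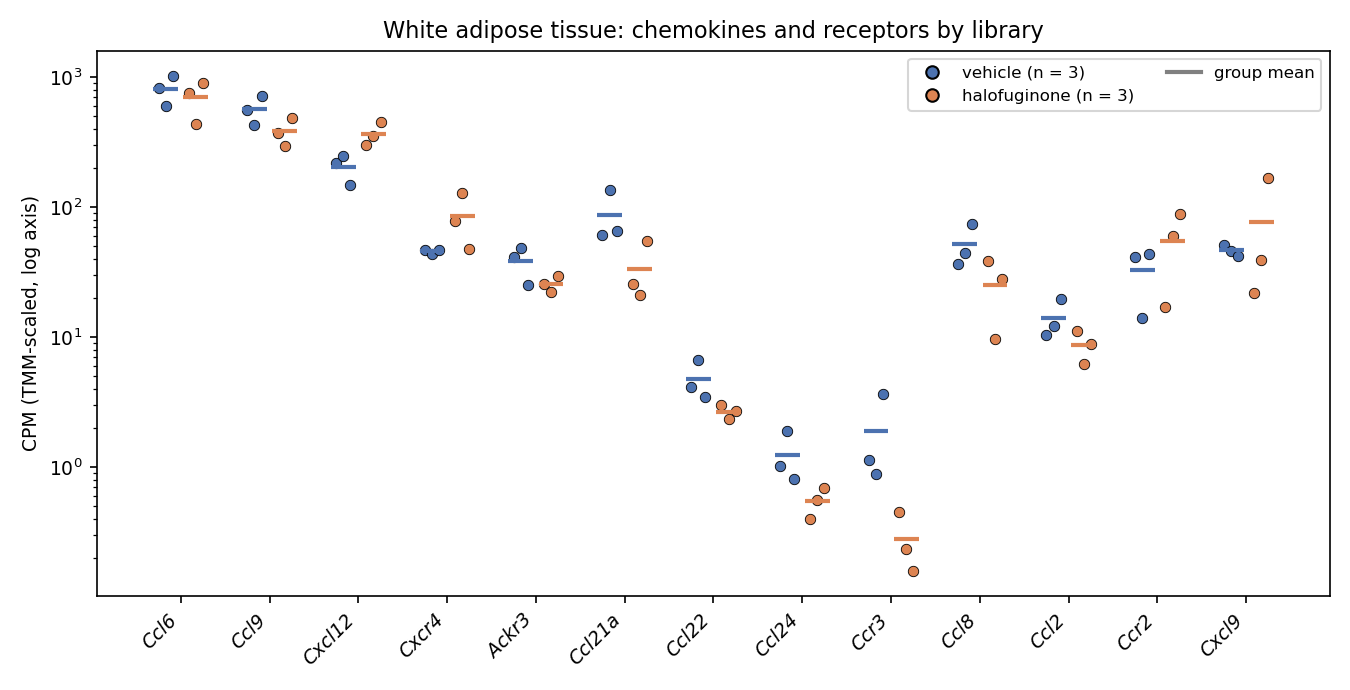
CPM (log axis) of 13 chemokines and receptors in each fat library, vehicle in blue and halofuginone in orange, with group means as bars (n = 3 each). The groups do not overlap for Cxcl12, Cxcr4, Ccl21a, Ccl22, Ccl24 and Ccr3, and a single treated library at 167 CPM lifts the treated mean of Cxcl9.

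The abundant myeloid ligands and their receptor Ccr1 overlapped in fat. Ccl6 held 817, 599 and 1025 CPM in vehicle and 749, 436 and 902 CPM in halofuginone fat (log2 fold change -0.23, SE 0.32, adjusted p = 0.812), and Ccl9 held 557, 426 and 708 CPM in vehicle and 368, 295 and 483 CPM in treated fat (log2 fold change -0.56, SE 0.26, adjusted p = 0.416). Ccr1 was highest in vehicle replicate 3, at 33.1, 17.7 and 86.6 CPM in vehicle and 16.9, 16.6 and 23.4 CPM in treated fat. It had a log2 fold change of -1.27 (SE 0.55, adjusted p = 0.381), and without that library -0.42 (adjusted p = 0.605). Macrophage markers fitted lower in 7 of 8 genes, with none called. They summed to 5376, 4368 and 9900 CPM in vehicle libraries 1 to 3 against 3061 to 3359 CPM in treated fat, with no overlap. Their part in the Ccr1, Ccl6 and Ccl9 values was not tested. The summed dendritic cell markers, 322 to 659 CPM in vehicle and 99.8 to 151 CPM in treated fat, were mostly Itgax (417 ± 193 against 87.1 ± 33.3 CPM, log2 fold change -2.26, adjusted p = 0.156). Of the 5 tested, 3 had positive fold changes and the list median was 0.184. Ccl3 held 4.98, 3.11 and 9.87 CPM in vehicle and 3.74, 4.79 and 5.05 CPM in treated fat, all treated libraries inside the vehicle range (log2 fold change -0.40, SE 0.44, adjusted p = 0.753). Ccl4 held 1.14, 1.44 and 2.89 CPM in vehicle and 0.510, 1.07 and 1.53 CPM in treated fat, with 2 of 3 treated libraries below it (log2 fold change -0.81, SE 0.59, adjusted p = 0.603).

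The remaining pairs had no called change in fat. Cxcl16 held 41.6, 52.8 and 66.7 CPM in vehicle and 27.3, 27.4 and 41.9 CPM in halofuginone fat, where 2 of 3 treated libraries were below the vehicle range (log2 fold change -0.74, SE 0.25, adjusted p = 0.301). Cxcr6 held 3.60, 3.05 and 2.54 CPM in vehicle and 3.11, 3.49 and 5.94 CPM in treated fat (log2 fold change 0.45, SE 0.36, adjusted p = 0.644). The B cell attractant Cxcl13 held 1.56, 4.49 and 2.19 CPM in vehicle and 5.72, 2.88 and 6.79 CPM in treated fat (log2 fold change 0.90, SE 0.51, adjusted p = 0.500), a value of the same sign as in liver but not past the threshold. Its receptor Cxcr5 held 0.779, 2.00 and 1.73 CPM in vehicle and 1.08, 0.511 and 1.10 CPM in treated fat (log2 fold change -0.75, SE 0.55, adjusted p = 0.610). Among the neutrophil attractants, Cxcl1 held 1.86, 1.61 and 3.92 CPM in vehicle and 3.51, 2.97 and 2.16 CPM in treated fat, all treated libraries inside the vehicle range (log2 fold change 0.22, SE 0.45, adjusted p = 0.872). Cxcl2 held 2.94, 1.17 and 2.31 CPM in vehicle and 4.93, 5.30 and 2.42 CPM in treated fat, with 2 of 3 treated libraries above it (log2 fold change 0.98, SE 0.48, adjusted p = 0.432). Cxcr2, the receptor of both, held 1.02, 0.111 and 0.289 CPM in vehicle and 3.34, 0.558 and 0.684 CPM in treated fat (log2 fold change 1.68, SE 1.02, adjusted p = 0.530), and treated replicate 1 alone lay above the vehicle range. Xcr1 held 1.20, 1.33 and 2.37 CPM in vehicle and 0.906, 1.21 and 3.05 CPM in treated fat (log2 fold change 0.08, SE 0.59, adjusted p = 0.971), while Cxcl5, Xcl1 and Ccr6 were below the filter and Ccl20 had no count. The other tested ligands were Ccl25 at 0.56 (SE 0.49, adjusted p = 0.675), Ccl27a at 0.34 (SE 0.58, adjusted p = 0.842), Ccl28 at -1.44 (SE 0.87, adjusted p = 0.525) and Cxcl14 at -0.18 (SE 0.47, adjusted p = 0.904) on the log2 scale. The other atypical receptors were Ackr1, which carries chemokines across venules, at 0.44 (SE 0.39, adjusted p = 0.684), Ackr2 at -0.45 (SE 0.38, adjusted p = 0.662) and Ackr4 at -0.04 (SE 0.90, adjusted p = 0.992). None of these 7 passed, and all overlapped between groups.

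Of the signalling genes tested in fat, 39 in all, none was called, 9 had a negative and 1 a positive log2 fold change at an unadjusted p under 0.05, and the median was -0.21. Across all genes, 7.91% had such a p in the lower and 5.50% in the higher direction. The lowest p among them belonged to Ptk2b (170.4 ± 34.9 against 89.1 ± 17.9 CPM, log2 fold change -0.94, adjusted p = 0.187) and Dock2 (176 ± 52.1 against 91.1 ± 12.6 CPM, log2 fold change -0.95, adjusted p = 0.210), a tyrosine kinase and an activator of the motility switch Rac in leukocytes. These 2 were named after their values were seen. None of the 21 inducers and 15 other chemoattractants tested was called, with medians of 0.058 and 0.10.

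A joint fit over the 16 libraries asked of each gene whether the drug effect differed between fat and liver. Of 45 genes tested, 1 was called (2.22%), against 0.949% of the 14853 genes tested. It was Cxcl11 (fat effect minus liver effect 5.05 on the log2 scale, SE 0.95, adjusted p = 0.0323). Cxcl11 had no count in the 3 vehicle fat libraries and 11 counts in all in the treated ones, at 0.113, 0.232 and 0.210 CPM, close to the level of 3 counts, so the size of this value depends on the prior count of the fit and is no measure of a fold change. The call was lost in 8 of the 16 fits that left out a library and with the replicate number as a block (adjusted p = 0.158). No other gene passed. The differences with the next lowest p, named after their values were seen, were Ccl21a at -1.85 (SE 0.49, adjusted p = 0.0835) and Ccr2 at 2.03 (SE 0.64, adjusted p = 0.134). Ccl21a passed without treated liver replicate 1 (adjusted p = 0.0368), without treated fat replicate 3 (adjusted p = 0.0219) and with DESeq2 (adjusted p = 0.0213), and Ccr2 with DESeq2 alone (adjusted p = 0.0437). Cxcl12 differed by 1.37 (adjusted p = 0.177) and passed without treated liver replicate 1, at 1.81 (adjusted p = 0.00354). Cx3cr1, which fell in liver, differed by 2.25 with an adjusted p of 0.223, so its fall was not shown to be limited to liver.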

How the data were processed

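RNA of 16 libraries was analysed from 1 table per tissue, each with the same 22322 Ensembl identifiers, of which 22267 matched a symbol in the reference table of gene names; 0 columns were left unmapped. Per the file headers, the authors deposited a whole-number count and an FPKM for each gene and library. Per the submitters' processing notes, fastp 0.18.0, Bowtie2 2.2.8, HISAT2, StringTie 1.3.1 and RSEM were used with the mm39 build; strand and duplicate handling are not given in the sources used here. Since 1 to 31 genes per library with 0 counts have a positive FPKM, the deposited counts may be rounded estimates. The labels' protocols give Trizol extraction, oligo(dT) capture and PCR and name no molecular identifiers, so count floors (3 counts) cover counting error only.

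Each tissue was fitted alone across all its genes by edgeR 4.0.16 under R 4.3.3, with TMM scaling, filterByExpr, the two-sided quasi-likelihood F test and Benjamini-Hochberg adjustment, and the tissue difference in 1 fit of all 16. These took liver and fat libraries as independent. The SE is the absolute log2 fold change over the square root of F. CPM is edgeR's cpm on the TMM-scaled library size. The call threshold was an adjusted p of 0.05. Alternatives were DESeq2 1.42.0, other scalings and filters, a replicate block, robust dispersion, 1 fit of all groups, limma 3.58.1 on log2 of the deposited FPKM plus 1 or 0.1 (mean FPKM of at least 1), and leaving out each library. The fits were tested on simulated counts.

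The members, gene lists, marker lists and tests were chosen with earlier results of these data known. Given with every library's value are called genes, genes without overlap and at least 1 CPM in the higher group, the 6 highest vehicle FPKM per tissue, and fixed pairs of ligands and receptors (lower ones by range); from the lists, at most 3 called genes each. Lists are described by counts and medians, with no set test. Some items are counted but not reported here by name.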

Additional observations from a re-analysis of the deposited data

Results flagged for a closer look

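Examined were 63 groups of 5 liver libraries, for the named members with more than 3 counts in some library. Of these, 13 had 1 library far from the other 4 by Dixon's test. For independent, normally distributed values about 1 in 20 would be found. The test was run on CPM without a log, and 7 of the 13 came from the same library, so this rate need not hold here. Halofuginone liver replicate 1 was the high one for 7 genes: Cxcl12 at 341 CPM (next 141), Cxcl9 at 23.1 (next 9.38), Cxcl16 at 15.4 (next 10.7), Cxcl10 at 4.92 (next 1.81), Ccl5 at 3.58 (next 0.746), Ccl4 at 0.348 (next 0.0746) and Xcl1 at 0.298 CPM (next 0.0716). Its T cell, B cell and macrophage marker sums were the highest of the 5 and its Asns level the lowest, and the part of these in the 7 values was not tested. Halofuginone liver replicate 2 was the high one for Cxcl1 at 49.8 CPM (next 11.6) and Cxcl13 at 21.5 CPM (next 3.97), and neutrophil markers were highest there at 17.7 CPM.

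Among vehicle livers, replicate 3 was high for Ccl6 at 43.9 CPM (next 25.1) and Cxcl2 at 0.886 CPM (next 0.336), and replicate 4 for Ccl3 at 0.747 CPM (next 0.401). Replicate 2 was low for Xcr1 at 0.1002 CPM (next 0.393), which is at most 3 counts. The fat groups of 3 were not examined in this way. The effect on Cxcl11 differed between fat and liver by 5.05 on the log2 scale in the joint edgeR fit (adjusted p = 0.0323), on 11 counts in treated fat and 0 in vehicle fat.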

How the results depend on the processing

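The 7 liver calls of 31 tested (22.6%, against 23.2% of all genes) became 8 of 31 with DESeq2 (25.8%, against 29.5%) and with its size factors (against 22.8%), 6 of 31 with library size alone (19.4%, against 29.5%) and 7 with robust dispersion. They were 9 of 55 with no filter (16.4%, against 15.8%), 5 of 19 with a filter of 1 CPM (26.3%, against 24.3%), 5 of 45 in 1 fit of all 4 groups (11.1%, against 14.8%) and 6 of 31 with the replicate block (19.4%, against 15.4%), where Ackr2 was lost (adjusted p = 0.0721). On FPKM, where 16 members reached a mean of 1, they were 1 with a pseudocount of 1 and 2 with 0.1, against 28.7% of all genes with either. Leaving out 1 library gave 3 to 14 members and 1275 to 5312 genes, the highest of each without halofuginone replicate 1; each of the other 9 fits gave 3 to 6 members (9.68 to 19.4%, against 10.3 to 15.4% of all genes). The liver median moved from -0.35 to -0.20 with library size alone, which shifts the median of all genes by 0.16, and to -0.55 and -0.56 with the 1 CPM filter and in the fit of all groups.

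In fat, where edgeR called 0 members and 0 genes, DESeq2 called 2 and 723, the fit of all groups 1 (Cxcl11, adjusted p = 0.0226) and 334, FPKM plus 1 called 13 genes and no filter 1, and leaving out 1 library gave 0 to 0 members. The fat median ran from -0.59 without halofuginone replicate 3 to 0.057 without halofuginone replicate 2. For the tissue difference, 1 member and 141 genes became 3 and 687 with DESeq2, 0 and 20 with the replicate block, and 0 to 3 and 34 to 1053 when a library was left out. Same-numbered libraries of a tissue did not deviate together (r from -0.16 to 0.057 in liver; 0.11, -0.57 and -0.12 in fat), so the replicate numbers were not used as pairs, and no other call of a named member was lost to it in liver than that of Ackr2.

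Signs reversed only for members that were not called. With library size alone the liver values were 0.017 for Ackr3, 0.091 for Ccl6, 0.024 for Cx3cl1, 0.0091 for Cxcr2 and 0.095 for Cxcr4, and in fat 0.037 for Cx3cr1. With FPKM plus 1 and plus 0.1 they were 0.032 and 0.031 for Ccl6, -0.25 and -0.29 for Cxcl1 and 0.071 and 0.12 for Cxcr4 in liver, and -0.062 and -0.23 for Cxcl10 in fat. Liver Cxcl1 was -0.022 with DESeq2, -0.016 with its size factors, -0.00079 at 1 CPM and -0.41 with the replicate block, which gave -0.31 for Cxcl10 and -0.048 for Xcr1 in fat. Leaving out 1 library, the liver ranges were -0.31 to 0.19 for Ackr3, -0.37 to 0.15 for Ccl6, -0.34 to 0.17 for Cx3cl1, -1.04 to 0.29 for Cxcl1, -0.66 to 0.13 for Cxcr2, -0.21 to 0.048 for Cxcr4 and -0.015 to 0.93 for Cxcr6. In fat they were -0.36 to 0.54 for Ccl19, -0.71 to 0.17 for Ccl3, -0.55 to 0.17 for Ccl5, -0.43 to 0.057 for Ccl6, -0.090 to 0.55 for Ccl7, -1.24 to 0.47 for Cx3cr1, -0.0046 to 0.73 for Cxcl1, -1.27 to 0.63 for Cxcl10, -0.59 to 1.15 for Cxcl9, -0.24 to 0.40 for Cxcr3 and -0.60 to 0.44 for Xcr1. Except where fewer libraries or genes entered, the cause was not tested. Members with few counts, Cxcl11, Cxcr1 and Ccr3 in fat and Ccl4 and Ccl22 in liver among them, are limited by depth.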

Other observations

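Some members were too rare to test. Cxcr1, a neutrophil receptor, had 0 counts in the 3 vehicle fat libraries and 17 in the 3 treated ones, at 0.113, 0.604 and 0.105 CPM, of which only replicate 2 was above the level of 3 counts. Ccr10, a receptor of skin-homing and plasma cells, was found at 0 to 0.420 CPM in vehicle and 0.283 to 0.421 CPM in treated fat. In liver, Ccl22 held 1.44 to 1.68 CPM in vehicle replicates 2, 3 and 4 and 0.0792 and 0.524 CPM in replicates 1 and 5, while the treated livers held 0.112 to 0.298 CPM. Its receptor Ccr4 had 4 counts in the 5 vehicle livers and 0 in the 5 treated ones.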
